A study of Mus musculus with 8 samples.

Results

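Integrin, adhesion and homing genes of pre-B cells were followed through the first hours of IKZF1 (Ikaros) induction by the accessible chromatin around them. The 8 genes were Itga5, Itga4, Itgb1 and Itgb7, which encode integrin chains, Cd44, which encodes a receptor for hyaluronan, Ptk2, which encodes focal adhesion kinase, and Cxcr4 and Ccr7, which encode chemokine receptors. All regions whose ATAC-seq summit lay in the body of one of these genes or within 20 kb of it (GRCm38, GENCODE M21) were taken. That gave 119 of the 174718 regions of the series. Itga5 had 24 regions, Ptk2 20, Itgb7 and Ccr7 14 each, Itga4, Cd44 and Cxcr4 13 each, and Itgb1 8.

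The cells were of the pre-B line B3 (mouse) and carried Ikaros-ERt2, delivered by transduction, a fusion that enters the nucleus when 4-hydroxytamoxifen (4-OHT) is added. Libraries came from cells with no treatment (0 h) or with 500 nM 4-OHT for 30 min, 1 h or 2 h, 2 replicates each. The study's methods name a retroviral MSCV plasmid for the IKZF1 constructs of B3 cells, which were then sorted for GFP. All groups carried the fusion and the 0 h cells are labelled as untreated, so the drug, its solvent and IKZF1 itself cannot be told apart as sources of a difference. Nothing in the labels says that replicates were separate cultures, so the spread between them, and every p-value, may be technical.

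Integrins are pairs of an α and a β chain that hold a cell to matrix or to other cells. The α5 chain pairs with β1 to bind fibronectin, while α4 pairs with β1 or with β7 and binds VCAM-1, fibronectin or the gut addressin MAdCAM-1. Engaged integrins signal through focal adhesion kinase. In the bone marrow, developing B cells are held to stromal cells by such contacts and by CXCR4, the receptor of the stromal chemokine CXCL12. CCR7 guides mature lymphocytes to lymph nodes. IKZF1 is a zinc finger protein that binds DNA around a GGAA or GGGA core and is known in these cells mostly as a repressor.

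The 8 peak lists held 85903 to 103897 peaks, and the background of the libraries ran from 0.26 to 0.405 fragments per base, with 11 to 14 fragments at the summit of the median peak. Of 9 pre-B cell marker genes, 6 had a peak within 1 kb of a start site in all 8 lists. None of 5 T cell, 4 myeloid and 3 erythroid markers had one in all lists, although Cd3g and Gata3 had one in 7. A region's strength was read as the percentile of its fold over local background among all peaks of the same list, and as the fragments at its summit, which the deposited values allow to be recovered. A region without a peak in a list was below the caller's threshold there, which does not show that it was closed.

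The sequences that the results turn on are printed as the 200 bp centred on the summit in GRCm38. They are regions of Itga5, Itga4, Itgb7, Ptk2 and Cxcr4 that lost or gained strength, and capitals mark the IKZF1 core on either strand. The first core word is GGAA, which reads TTCC on the other strand, and the second is GGGA, whose other strand is TCCC. Overlapping words were each counted. Of all 47875 regions with a peak in all 8 lists, 97.8% held at least 1 such word and the median number was 4, so a single match sets no region apart.
Itga5, 10.3 kb upstream (chr15:103376948-103377147, plus strand): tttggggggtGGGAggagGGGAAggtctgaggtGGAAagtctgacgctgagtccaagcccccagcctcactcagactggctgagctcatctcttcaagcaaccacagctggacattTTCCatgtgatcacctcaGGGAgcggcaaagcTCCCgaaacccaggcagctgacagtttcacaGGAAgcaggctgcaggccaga
Itga5, 11.2 kb upstream (chr15:103377878-103378077, plus strand): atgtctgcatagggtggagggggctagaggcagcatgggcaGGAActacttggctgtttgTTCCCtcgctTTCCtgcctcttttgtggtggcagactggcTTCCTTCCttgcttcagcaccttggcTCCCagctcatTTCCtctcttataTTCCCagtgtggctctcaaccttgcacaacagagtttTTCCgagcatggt
Itga5, 17.1 kb upstream (chr15:103383799-103383998, plus strand): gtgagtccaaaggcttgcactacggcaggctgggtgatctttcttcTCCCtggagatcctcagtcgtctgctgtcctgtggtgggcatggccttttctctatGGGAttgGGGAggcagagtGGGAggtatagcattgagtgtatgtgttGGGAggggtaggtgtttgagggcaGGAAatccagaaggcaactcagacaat
Itga5, 10.5 kb downstream (chr15:103356203-103356402, plus strand): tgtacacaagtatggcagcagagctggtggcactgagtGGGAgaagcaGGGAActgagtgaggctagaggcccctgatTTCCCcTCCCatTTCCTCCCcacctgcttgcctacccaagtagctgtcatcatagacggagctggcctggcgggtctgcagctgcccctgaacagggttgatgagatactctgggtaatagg
Itga5, 29.6 kb downstream (chr15:103337081-103337280, plus strand): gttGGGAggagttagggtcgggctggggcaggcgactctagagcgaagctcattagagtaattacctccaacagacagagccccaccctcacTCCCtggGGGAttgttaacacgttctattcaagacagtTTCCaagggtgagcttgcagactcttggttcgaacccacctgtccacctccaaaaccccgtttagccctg
Itga4, 669 bp upstream (chr2:79254731-79254930, plus strand): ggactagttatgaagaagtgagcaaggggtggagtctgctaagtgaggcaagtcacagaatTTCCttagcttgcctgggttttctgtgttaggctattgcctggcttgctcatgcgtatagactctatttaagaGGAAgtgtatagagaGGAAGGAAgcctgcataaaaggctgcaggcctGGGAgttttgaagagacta
Itgb7, 862 bp downstream (chr15:102230982-102231181, plus strand): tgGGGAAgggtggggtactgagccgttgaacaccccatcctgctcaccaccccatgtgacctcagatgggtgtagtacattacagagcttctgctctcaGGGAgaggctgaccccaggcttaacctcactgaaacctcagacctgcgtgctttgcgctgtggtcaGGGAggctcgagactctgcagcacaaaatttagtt
Ptk2, 19.3 kb upstream (chr15:73442437-73442636, plus strand): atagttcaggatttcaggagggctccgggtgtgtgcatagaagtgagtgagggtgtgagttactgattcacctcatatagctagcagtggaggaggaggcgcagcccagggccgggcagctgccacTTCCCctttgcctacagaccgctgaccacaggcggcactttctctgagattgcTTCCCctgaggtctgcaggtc
Cxcr4, 11 kb upstream (chr1:128603159-128603358, plus strand): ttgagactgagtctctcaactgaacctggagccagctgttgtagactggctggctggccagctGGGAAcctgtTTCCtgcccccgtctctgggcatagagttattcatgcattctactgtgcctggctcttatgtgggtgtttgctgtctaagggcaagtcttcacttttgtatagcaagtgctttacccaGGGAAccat
Cxcr4, 19.7 kb upstream (chr1:128611851-128612050, plus strand): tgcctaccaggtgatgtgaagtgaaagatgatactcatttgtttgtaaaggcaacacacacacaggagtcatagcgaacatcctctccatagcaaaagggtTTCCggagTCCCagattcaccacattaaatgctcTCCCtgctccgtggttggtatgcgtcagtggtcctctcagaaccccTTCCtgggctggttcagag
The region 11.2 kb upstream of the Itga5 start held 11 words, a number reached by 1.15% of the 47875 regions, and those 10.3 kb upstream and 10.5 kb downstream held 8 each, reached by 9.51%. The other printed regions that fell or were lost held fewer. There were 6 words 17.1 kb upstream of Itga5, 5 each 669 bp upstream of Itga4 and 11 kb upstream of Cxcr4, and 4 at 19.7 kb upstream of Cxcr4. The regions with more signal after induction, 29.6 kb downstream of Itga5, 862 bp downstream of Itgb7 and 19.3 kb upstream of Ptk2, held 4 each.

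**Figure D1:**
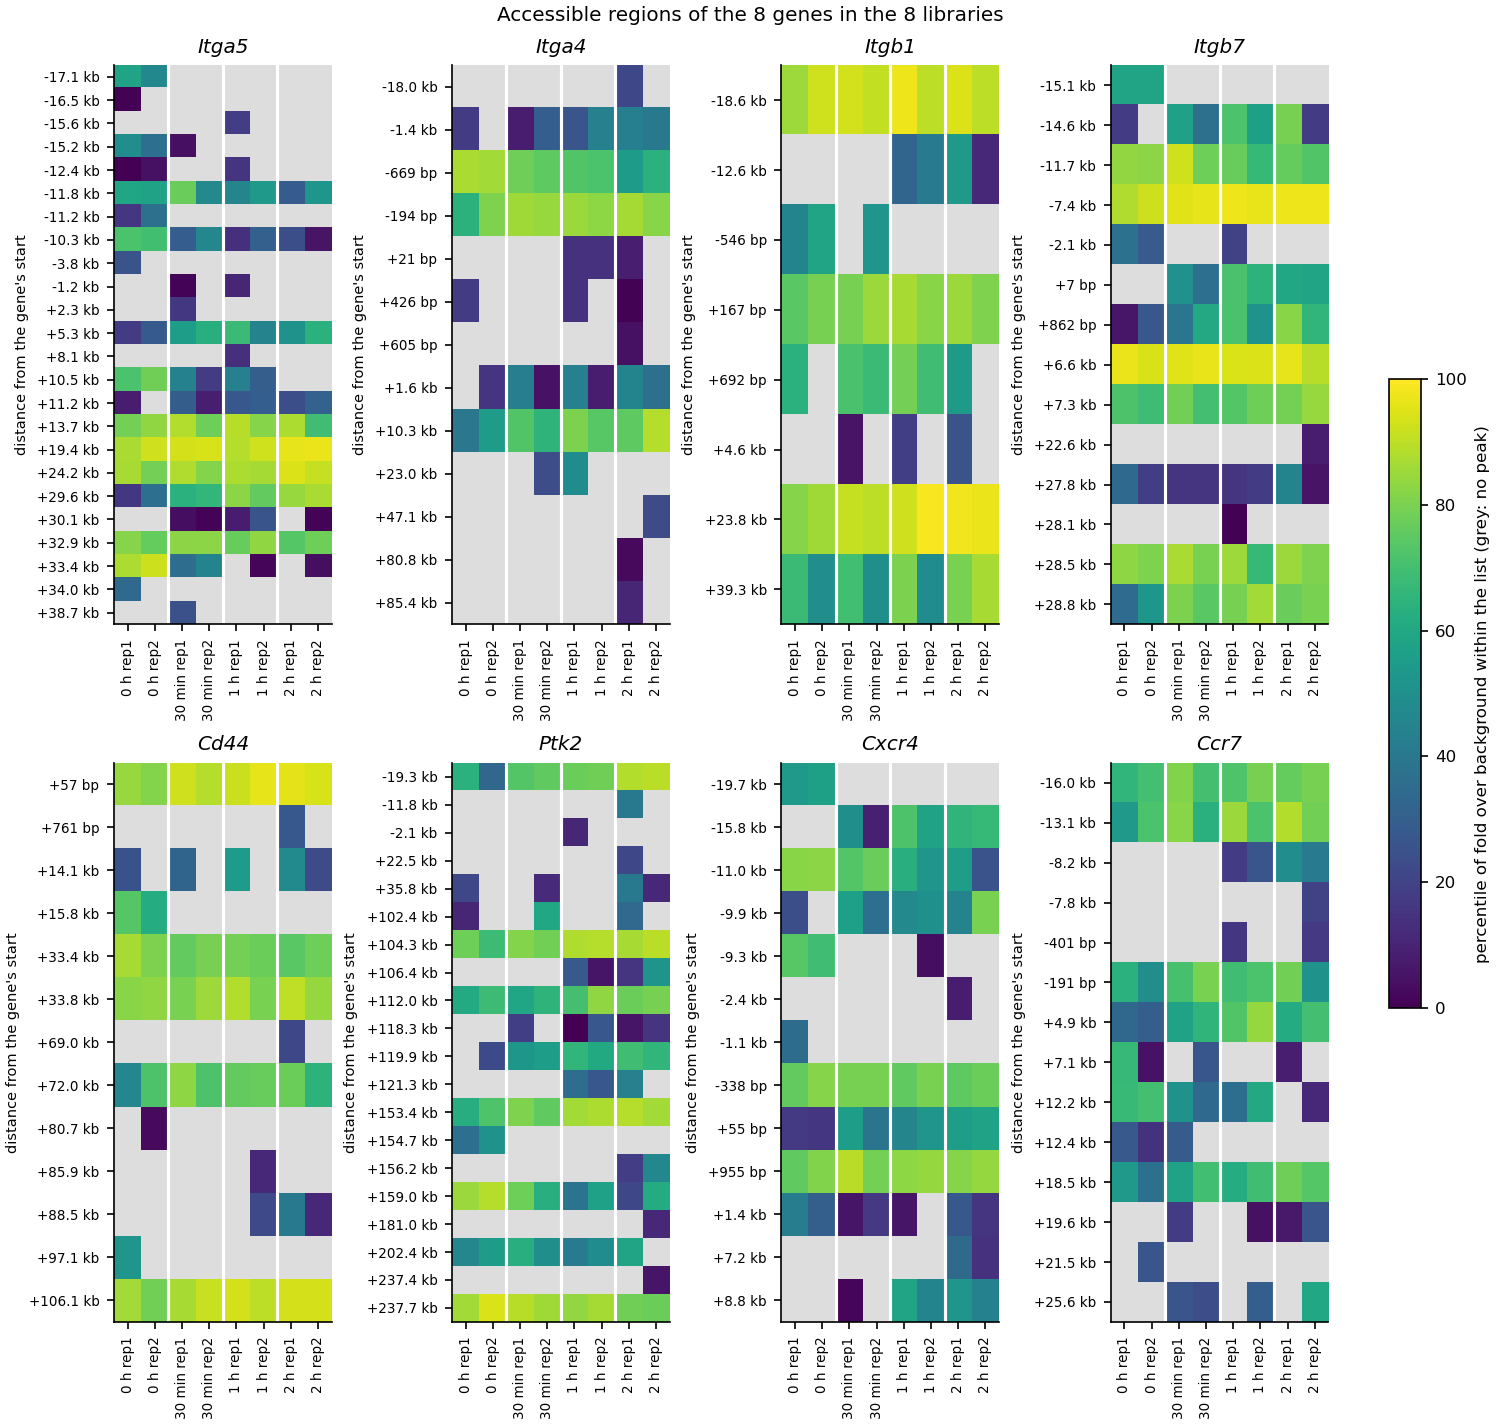
Each panel shows the regions of 1 gene from upstream to downstream of its start and each column 1 library, coloured by the percentile of the region's fold over background within that list, with grey for no peak. The Itga5 panel empties at its top from left to right, with 18 and 14 peaks at 0 h and 9 and 11 after 2 h, while the Ptk2 panel fills, from 10 and 9 to 16 and 13. The whole lists held 93936 and 85903 peaks at 0 h and 103897 and 99060 after 2 h.

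Summed over the 8 genes, the lists held 75 and 66 peaks at 0 h, 72 and 66 after 30 min, 79 and 71 after 1 h and 83 and 73 after 2 h. Single genes took opposite courses within that total. Itga5 had 18 and 14 peaks at 0 h, 17 and 12 after 30 min, 16 and 13 after 1 h and 9 and 11 after 2 h, and both lists of 2 h were below both of 0 h. Ptk2 had 10 and 9 peaks at 0 h, 9 and 10 after 30 min, 12 and 11 after 1 h and 16 and 13 after 2 h. Its lists of 1 h and of 2 h were above those of 0 h. The whole lists grew as well, from 93936 and 85903 peaks at 0 h to 99888 and 87731 after 30 min. They held 103850 and 93462 after 1 h and 103897 and 99060 after 2 h. The sum over the 8 genes moved the same way as the length of the lists at 1 h and 2 h. At 30 min it did not, with 72 and 66 peaks after 75 and 66. The 8 genes' regions were split between introns (61), intergenic DNA (50) and exons or untranslated exons, 54 lay inside the gene they were taken for, and for 56 the nearest start site was that gene's own.

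Of the 61 member regions with a peak in both 0 h lists, 9 had none in either list of 30 min, 10 none at 1 h and 13 none at 2 h. Over the whole series such lost regions made up 10.9%, 14.6% and 16.6% of those in both 0 h lists, so the members' numbers were near the background. Of 40 member regions with no peak at 0 h, 4 had one in both lists of 30 min, 10 after 1 h and 11 after 2 h, against 11.1%, 19.2% and 23.9% of such regions in the series. At 2 h Itga5 had lost 5 of its 14 regions in both 0 h lists and gained none of the 6 in neither, while Ptk2 had gained 3 of 9 and Cxcr4 3 of 4. For a single region, 2 lists against 2 cannot give an exact p under 0.05 from presence alone. A fit that gives absent regions a value is described after the single genes.

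A peak in all 8 lists was required for a test of strength, and 43 of the 119 member regions had one (36.1%, against 27.4% of all regions), 8 each for Itga5 and Itgb7, 6 for Ptk2, 5 each for Cd44 and Ccr7, 4 each for Itgb1 and Cxcr4 and 3 for Itga4. Percentiles were turned into normal scores and compared with limma over all 47875 such regions, with calls at a Benjamini-Hochberg adjusted p under 0.01. Regions without a peak in some list, all lost and gained ones among them, were outside this test and could not be called either way. At 2 h, 2 of the 43 member regions were called higher, where the background was 2.5% higher, and none was called lower, where the background was 2.73%. At 1 h no member was called in either direction, against a background of 1.02% lower and 0.986% higher, and at 30 min none, against 0.0% both ways. At an unadjusted p under 0.05, 5 members were lower and 18 higher at 2 h, against 13.8% and 22.7% of all tested regions. At 1 h these numbers were 4 and 14 (11.4% and 20.5% of all) and at 30 min 1 and 7 (6.35% and 14.0%). Full separation in percentile from both 0 h libraries was common. Both libraries of a time were above in 33.9%, 39.1% and 40.6% of all tested regions at 30 min, 1 h and 2 h. They were below in 17.7%, 22.1% and 24.3%. The share separated at all treated times together was not counted.

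The percentile compares a summit with its own surroundings, and that background can itself move. The fragments at the summit divided by the background of the library, on a log2 scale, were therefore fitted in the same way. On that scale 5 members were lower and 6 higher at 2 h (7.15% and 7.87% of all tested regions), 3 lower and 3 higher at 1 h (5.16% and 4.26%) and 1 lower and none higher at 30 min (1.27% and 0.307%). The median tested region of the genome moved by 0.22 after 2 h, 0.16 after 1 h and 0.05 after 30 min on this scale. With each library centred on its median, 5 members were lower and 5 higher at 2 h (9.37% and 5.43% of all), the region at the Cxcr4 start dropping out, 3 and 3 at 1 h (6.63% and 3.48%) and 1 and none at 30 min (1.3% and 0.322%). With ranks taken among the tested regions only, 3 members were lower and 1 higher at 2 h (4.71% and 2.28%), and none lower and 1 higher at 1 h (2.51% and 1.1%).

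**Figure D2:**
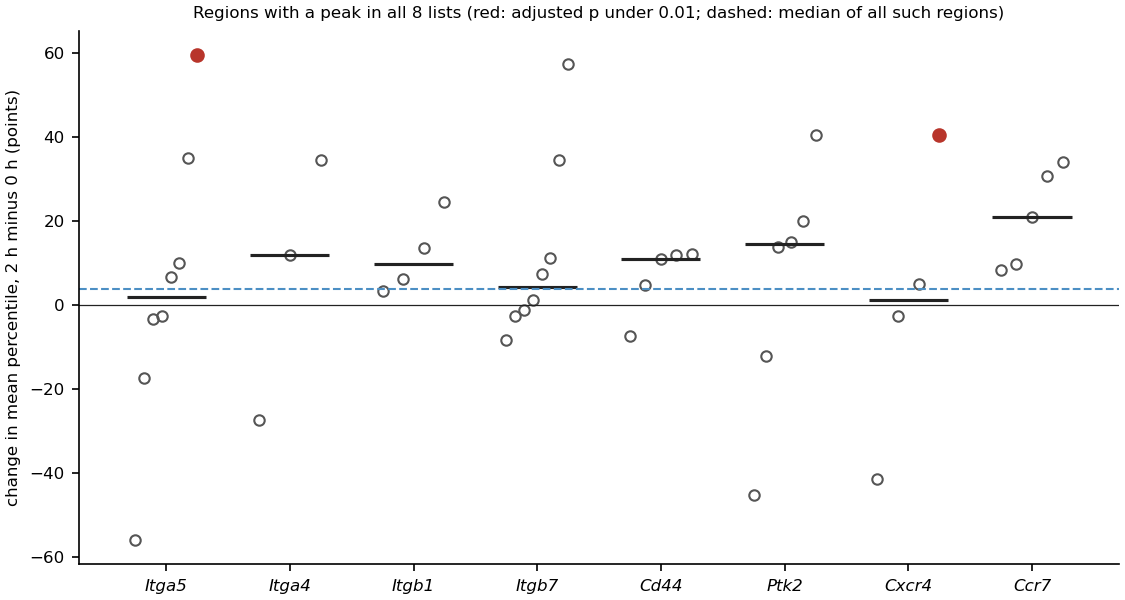
Each circle is a region with a peak in all 8 lists, placed by the change in its mean percentile from 0 h to 2 h in points, with red for an adjusted p under 0.01, a bar for the gene's median and a dashed line for the median of all 47875 such regions (3.66). Both red circles, of Itga5 and Cxcr4, lie above 40, and the lowest circles of Itga5, Ptk2 and Cxcr4 lie lowest without passing the threshold.

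Itga5, the α5 chain of the fibronectin receptor, held both the largest fall and the largest rise in mean percentile among the 43 tested member regions. The gene lies on the minus strand at chr15:103344286-103366763. No list had a peak within 1 kb of its annotated start; the nearest, 1.15 kb upstream, was in 2 lists with 4 and 5 fragments. Most of its accessible regions fell in 2 blocks, one 10.3 to 17.1 kb upstream around the start of Gm37322, an annotated gene model, and one from 5.29 kb inside the gene to 38.7 kb downstream, in the neighbouring gene Zfp385a. The other 3 regions, between the blocks, had peaks in 1 or 2 lists.

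The upstream block lost most of its signal. Its strongest region at 0 h, 10.3 kb upstream (chr15:103376773-103377408, intergenic), had 68 and 46 fragments at 0 h, 16 and 16 after 30 min, 10 and 13 after 1 h and 11 and 8 after 2 h. The drop was thus already large at 30 min, and no treated library came near the 0 h ones. Its percentiles were 71.7 and 69.6 at 0 h, 29.7 and 46.2 after 30 min, 13.3 and 30.6 after 1 h and 24.2 and 5.09 after 2 h. The change in mean percentile at 2 h, -56.0 points, was the largest fall of any tested member, and its adjusted p in limma was 0.0113, just above the threshold. On the fragment scale the region fell by 2.62 ± 0.27 (log2, SE) at 2 h, with an adjusted p of 0.000107, and had already passed at 30 min, with an adjusted p of 0.00277. The local background, over which the ranked fold is taken, was itself 4.92 and 3.45 fragments per base at 0 h and 1.27 and 1.22 after 2 h. With no control, that background comes from the same library. Its fall was not separated from that of the summit and the neighbouring peaks.

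The region 11.8 kb upstream, 478 bp from the Gm37322 start, had 56 and 39 fragments at 0 h, 39 and 17 after 30 min, 17 and 19 after 1 h and 13 and 18 after 2 h. All libraries of 1 h and 2 h were below both 0 h libraries, while 1 library of 30 min was not. It fell by 1.65 ± 0.30 on the fragment scale at 2 h (adjusted p 0.00206) but not in percentile, where its adjusted p was 0.319. Between and beyond these, 4 regions had a peak in both 0 h lists and in neither 2 h list. Those 11.2 kb upstream (28 and 26 fragments at 0 h, percentiles 16.0 and 37.1) and 17.1 kb upstream (36 and 22 fragments, percentiles 58.4 and 46.5) had no peak in any of the 6 treated lists. The region 15.2 kb upstream had 45 and 27 fragments at 0 h, 10 in 1 list of 30 min and no later peak. The region 12.4 kb upstream had 21 and 16 fragments at 0 h and a single later peak with 11, at 1 h.

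**Figure D3:**
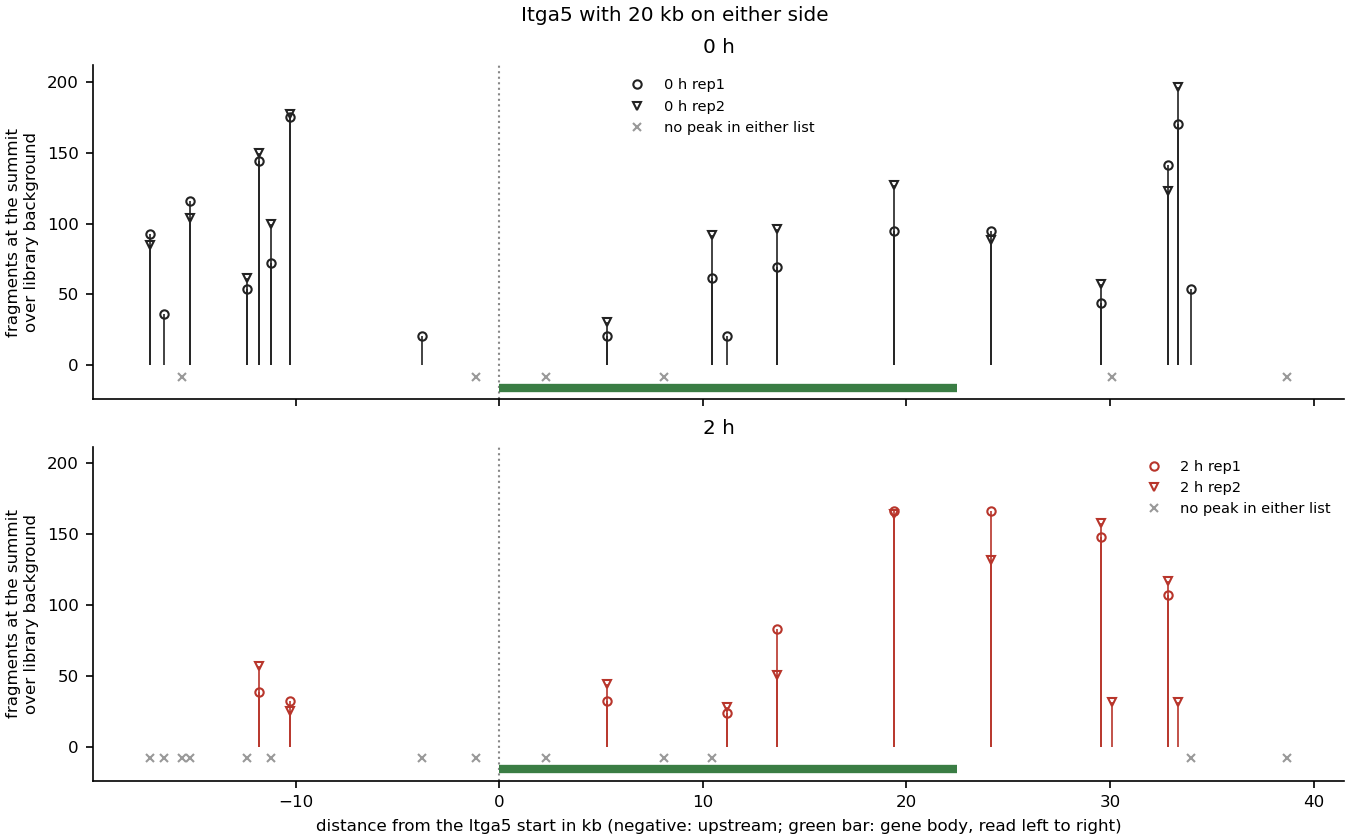
Fragments at the summit over the background of the library (vertical axis, a ratio) for the 24 regions of Itga5, by distance from its start in kb, in the 2 libraries of 0 h (top) and of 2 h (bottom), with crosses for no peak in either list. The block 10 to 17 kb upstream stands at 54.0 to 177 in the regions found in both 0 h lists and is reduced to 2 regions at 2 h, while the region 29.6 kb downstream goes from 43.7 and 57.7 to 148 and 158.

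Inside and behind the gene the regions took separate courses. The region in an intron 10.5 kb downstream of the start had 24 and 24 fragments at 0 h, 12 and 8 after 30 min, 11 and 10 after 1 h and no peak in either list of 2 h. A region 33.4 kb downstream, in an intron of Zfp385a and 925 bp from a start of that gene, had 66 and 51 fragments at 0 h and 18 and 17 after 30 min, then 10 in 1 list each of 1 h and 2 h. It was not counted as lost, and it held 9 core words, a number reached by 4.96% of all tested regions. The next region, 32.9 kb downstream, had 55 and 32 fragments at 0 h and 36 and 37 after 2 h, and its adjusted p at 2 h was 0.711.

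The region 29.6 kb downstream of the Itga5 start (chr15:103337074-103337235), also in an intron of Zfp385a, rose. It had 17 and 15 fragments at 0 h, 30 and 27 after 30 min, 49 and 38 after 1 h and 50 and 50 after 2 h. Every treated library was above both 0 h libraries, and its mean percentile went from 26.4 ± 14.6 (SD, n = 2) to 85.8 ± 1.91 (SD, n = 2). The shift in normal score was 1.74 ± 0.25 (SE) with an adjusted p of 0.00403, and on the fragment scale 1.61 ± 0.24 with an adjusted p of 0.000606. Without replicate 1 of 0 h the adjusted p was 0.0148, and without replicate 1 or 2 of 2 h it was 0.0224 or 0.0292. The intronic regions of Itga5 13.7 and 19.4 kb downstream had adjusted p-values of 0.904 and 0.101 after 2 h, and the one 5.29 kb downstream went from 8 and 8 to 11 and 14 fragments, with an adjusted p of 0.0352.

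Itga4, the α4 chain, lies on the plus strand at chr2:79255426-79333123. Its strongest region at 0 h, 669 bp upstream of the start (chr2:79254603-79254960), had 75 and 53 fragments at 0 h, 47 and 39 after 30 min, 45 and 40 after 1 h and 30 and 34 after 2 h. All treated libraries were below both of 0 h, and percentiles went from 87.3 and 86.1 to 54.7 and 63.7. The adjusted p was 0.0172 for the percentile at 2 h, 0.00826 when ranks were taken among the tested regions only, and 0.0059 on the fragment scale, where the region fell by 1.02 ± 0.23. A neighbouring region 194 bp upstream of the same start did not follow: it had 42 and 45 fragments at 0 h and 64 and 51 after 2 h, with an adjusted p of 0.236. In the first intron, 10.3 kb downstream, another had 8 and 9 fragments at 0 h and 16 and 23 after 2 h, with an adjusted p of 0.0254. The difference between the regions either side was not itself tested. No Itga4 region was lost or gained at 2 h, and a region 23.0 kb downstream with 16 core words, a number reached by 0.0355% of all tested regions, had only weak peaks, with 6 and 9 fragments in 1 list each of 30 min and 1 h.

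Itgb1, the β1 chain that pairs with both α5 and α4, lies at chr8:128685654-128733200 on the plus strand and had the fewest regions. Its start-site region, 167 bp downstream (chr8:128685338-128685938), had 34 and 28 fragments at 0 h, 36 and 38 after 30 min, 46 and 36 after 1 h and 43 and 34 after 2 h, with an adjusted p of 0.476 after 2 h. A weaker region 546 bp upstream of that start had 19 and 17 fragments at 0 h, 18 in 1 list of 30 min and no peak later. In the gene, the region 23.8 kb downstream had 20 and 19 fragments at 0 h and 36 and 34 after 2 h (adjusted p 0.0447), and the one 39.3 kb downstream 14 and 8, then 18 and 21 (adjusted p 0.139). The region 18.6 kb upstream, which moved least of the 4, had percentiles of 85.3 and 92.6 at 0 h and 94.6 and 89.9 after 2 h. A region 12.6 kb upstream was absent at 0 h and 30 min and had 7 and 8 fragments at 1 h and 10 and 5 after 2 h.

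Itgb7, the β7 chain of gut-homing integrin, lies at chr15:102215995-102231944 on the minus strand. Its start-site region, 7 bp from the start, had no peak at 0 h, then 13 and 10 fragments at 30 min, 23 and 19 after 1 h and 18 and 17 after 2 h, and so was gained at each time. The intronic region 862 bp downstream (chr15:102230770-102231238) had 7 and 7 fragments at 0 h, 11 and 15 after 30 min, 23 and 15 after 1 h and 30 and 19 after 2 h. Every treated library was above both 0 h libraries for the second of these regions, while the first had no value at 0 h to compare. The second had a change in mean percentile of 57.4 points at 2 h with an adjusted p of 0.0132, and it rose by 1.73 ± 0.33 on the fragment scale, with an adjusted p of 0.00268.

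Around Itgb7, a region 28.8 kb downstream and 486 bp from a start of Zfp740 had 15 and 15 fragments at 0 h, 38 and 27 after 30 min, 39 and 41 after 1 h and 40 and 32 after 2 h. It rose on the fragment scale by 1.21 ± 0.26 after 2 h (adjusted p 0.00485) and passed at 1 h too (0.00415), with adjusted p-values of 0.0234 and 0.0186 for the percentile. The strongest Itgb7 region, in an intron 6.61 kb downstream, had 82 and 49 fragments at 0 h and 80 and 56 after 2 h, with an adjusted p of 0.573. Of the regions upstream, the one 2.13 kb away (11 and 7 fragments at 0 h, 9 core words) had 1 later peak, at 1 h, and the one 15.1 kb away, in the neighbour Rarg, had 19 and 15 fragments at 0 h and no later peak. The region with the largest fall in percentile, 11.7 kb upstream in Rarg, went from 83.8 and 82.6 to 76.5 and 72.8, with an adjusted p of 0.431.

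Cd44, whose product binds hyaluronan in the marrow matrix, lies at chr2:102811141-102901665 on the minus strand. Its start-site region, 57 bp from the nearest start, had 35 and 23 fragments at 0 h, 39 and 31 after 30 min, 37 and 40 after 1 h and 45 and 39 after 2 h. Percentiles were 84.7 and 81.6 at 0 h and 95.9 and 94.1 after 2 h, above 0 h in every treated library, with an adjusted p of 0.0553 after 2 h. The intronic region 33.4 kb downstream had the largest fall, from percentiles of 86.9 and 80.4 to 74.6 and 77.9 (adjusted p 0.355), and the one 72.0 kb downstream the largest rise, from 46.4 and 71.9 to 77.7 and 64.6 (adjusted p 0.424). An intronic region 15.8 kb downstream with 7 core words had 20 and 12 fragments at 0 h and no peak in the 6 treated lists. In the last exon, 88.5 kb downstream, a weak region appeared with 6 fragments in 1 list of 1 h and 8 and 5 after 2 h.

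Ptk2, the gene of focal adhesion kinase, is the longest of the 8 (chr15:73205102-73423280, minus strand), and no list had a peak within 1 kb of its annotated starts. Its regions moved both ways. The region 159 kb downstream of the start, in a non-coding exon of 1700085D07Rik inside the gene, had 30 and 30 fragments at 0 h, 20 and 13 after 30 min, 8 and 11 after 1 h and 6 and 12 after 2 h. All treated libraries were below 0 h, and it fell on the fragment scale by 1.86 ± 0.36 after 2 h (adjusted p 0.00285) and passed at 1 h as well (0.00542). Its percentiles at 2 h, 21.5 and 61.5, were far apart, and the adjusted p for the percentile was 0.028.

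Upstream of Ptk2, the region 19.3 kb away (chr15:73442467-73442711, intergenic) had 13 and 6 fragments at 0 h, 17 and 16 after 30 min, 18 and 19 after 1 h and 26 and 25 after 2 h. It rose on the fragment scale by 1.49 ± 0.26 after 2 h (adjusted p 0.00148), while the percentile gave an adjusted p of 0.0135. The intronic region 104 kb downstream had 18 and 12 fragments at 0 h and 31 and 29 after 2 h and rose by 0.99 ± 0.22 on the fragment scale (adjusted p 0.00647). It held no core word. Of the other intronic regions, those 106, 118 and 156 kb downstream were gained at 2 h with 5 to 12 fragments, and the one 155 kb downstream had 12 and 13 fragments at 0 h and none in any treated list. The region 238 kb downstream, which lies 521 bp from a start of the neighbour Ago2, had 52 and 53 fragments at 0 h and 36 and 30 after 2 h, with an adjusted p of 0.105.

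**Figure D4:**
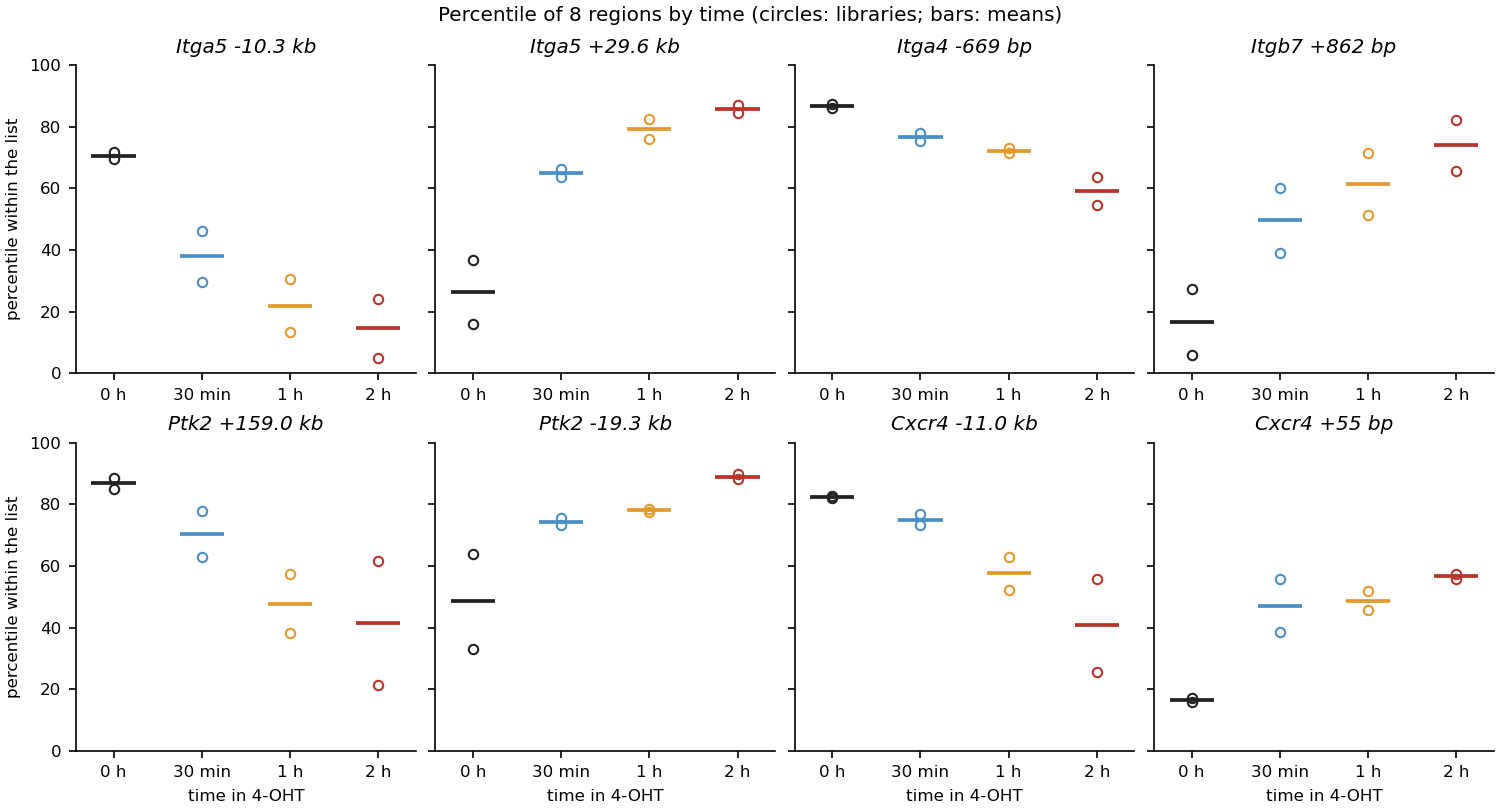
Percentile within the list (vertical axis, 0 to 100) of 8 regions at 0 h, 30 min, 1 h and 2 h, with circles for libraries and bars for means of 2. The panels with falling bars are those 10.3 kb upstream of Itga5, 669 bp upstream of Itga4, 159 kb downstream of Ptk2 and 11 kb upstream of Cxcr4; of the 4 with rising bars, those 29.6 kb downstream of Itga5 and 55 bp downstream of Cxcr4 passed the adjusted p of 0.01 after 2 h.

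Cxcr4, the receptor that retains B cell precursors in the marrow, lies at chr1:128588199-128592293 on the minus strand. Neighbouring regions at its start behaved differently. The one 55 bp downstream (chr1:128592137-128592446), in the 5′ untranslated exon, had 20 and 13 fragments at 0 h, 35 and 23 after 30 min, 28 and 32 after 1 h and 35 and 33 after 2 h. Every treated library was above both 0 h libraries, and percentiles of 17 and 15.7 at 0 h became 55.9 and 57.5 after 2 h. The shift in normal score was 1.15 ± 0.22 with an adjusted p of 0.00949. That call was lost in most alternatives, with adjusted p-values of 0.012 to 0.0521 where it was. The region 338 bp upstream had 55 and 45 fragments at 0 h and 52 and 50 after 2 h, with an adjusted p of 0.767. In the intron, the region 955 bp downstream had 55 and 44 fragments at 0 h and 62 and 60 after 2 h (adjusted p 0.59). The one 1.38 kb downstream, in 7 lists and so outside the test, went from percentiles of 41.9 and 30.4 to 27.4 and 15.6. Its fragments were 28 and 17 at 0 h and 23 and 18 after 2 h.

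Upstream of Cxcr4, 3 regions weakened or were lost and another was gained. The one 11 kb upstream (chr1:128603106-128603343, intergenic) had 30 and 25 fragments at 0 h, 21 and 21 after 30 min, 17 and 13 after 1 h and 15 and 9 after 2 h, each treated library below both of 0 h. Its adjusted p at 2 h was 0.0198 for the percentile, 0.0077 with ranks among the tested regions and 0.00524 on the fragment scale, where it fell by 1.28 ± 0.28. The region 19.7 kb upstream had 28 and 21 fragments at 0 h and no peak in any treated list, and the one 9.31 kb upstream, with 8 core words, had 23 and 17 before treatment and a single later peak with 5. Against these, the region 15.8 kb upstream, which held no core word, was absent at 0 h and had 11 and 6 fragments at 30 min, 22 and 15 after 1 h and 20 and 17 after 2 h. The region 9.88 kb upstream, in 7 lists, did not weaken either. It had 9 fragments in 1 list of 0 h, 14 and 9 after 30 min, 11 and 11 after 1 h and 11 and 22 after 2 h. Downstream of the gene, regions 7.19 and 8.76 kb from the start were also gained at 2 h, with 6 to 12 fragments.

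Ccr7 lies at chr11:99144196-99155077 on the minus strand, and its 5 tested regions had higher mean percentiles at 2 h than at 0 h without passing the threshold. Their median change was 20.9 points, beside 9.77 over the 43 tested member regions and 3.66 over all 47875. Regions outside the test did not all rise. The one 12.2 kb downstream, in 7 lists, had 17 and 15 fragments at 0 h and 10 and 7 after 30 min. It then had 8 and 12 after 1 h and 5 in 1 list of 2 h. The one 7.12 kb downstream had 17 and 4 at 0 h, 7 in 1 list of 30 min and 6 in 1 list of 2 h. The intronic region 4.93 kb downstream of the start had 9 and 7 fragments at 0 h, 13 and 14 after 30 min, 18 and 24 after 1 h and 14 and 15 after 2 h. It was highest at 1 h, where it passed on the fragment scale (adjusted p 0.00699) and had an adjusted p of 0.0115 for the percentile. At 2 h the adjusted p-values were 0.0422 and 0.0256. The start-site region, 191 bp upstream, had 14 and 8 fragments at 0 h and 20 and 10 after 2 h (adjusted p 0.564), a difference within the spread of its replicates. A region 8.16 kb upstream was gained, with 7 and 8 fragments at 1 h and 12 and 10 after 2 h, and one 12.4 kb downstream with 8 core words, with 8 and 5 fragments at 0 h, was absent at 1 h and 2 h.

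Read across the 8 genes, neither start sites nor distal regions all moved one way, but rises in percentile were commoner than falls. The mean percentile rose at 2 h in 30 of the 43 tested member regions and fell in 13. Their median change was 9.77 points, against 3.66 over all tested regions, and this lean was not tested. Of the regions within 1 kb of the start of their own gene that were in all 8 lists, the one upstream of Itga4 fell on the fragment scale, those 862 bp downstream of the Itgb7 start and 55 bp downstream of the Cxcr4 start rose on it, and those of Itgb1, Cd44 and Ccr7, the second of Itga4 and the other pair of Cxcr4 passed on neither scale. Both libraries of 2 h were below both of 0 h in percentile for 8 of the 43 tested member regions, where 24.3% of all tested regions were, and above for 26, where 40.6% were. Within that, Itga5 had a median change of 1.97 points and Cxcr4 of 1.15, Itgb7 of 4.22, Itgb1 of 9.78, Cd44 of 10.9, Itga4 of 11.9, and Ptk2 of 14.4. Taking regions with a peak in at least 2 of the 8 lists and placing absent ones below the weakest peak, 7 members were lower and 7 higher at 2 h, against 5.91% and 5.93% of 126504 regions. Those 7 lower ones were all lost regions, 7 of the 13, and the 7 higher ones all gained, 7 of the 11, so each of these calls rests partly on a placed value. The numbers were 6 and 5 at 1 h (5.39% and 4.91%) and 6 and 2 at 30 min (4.64% and 3.29%).

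Core words were counted by the fate of the regions. Per 100 bp around the summit, the 13 member regions lost at 2 h held 3.19 ± 1.16 words (mean and SD over regions), the 43 tested ones 2.0 ± 0.994 and the 11 gained ones 1.27 ± 0.932. The same was seen over the series, with 3.08 ± 1.25 in 11581 lost regions, 2.15 ± 1.17 in the 47875 tested ones and 1.47 ± 0.966 in 16223 gained ones. Over all its regions, each gene's mean lay between those of the member regions gained and lost. Itga5 had 2.62 words per 100 bp over its 24 regions, Itga4 2.85, Itgb7 2.57, Ccr7 2.39, Cd44 1.85, Cxcr4 1.81, Ptk2 1.55 and Itgb1 1.31. The longer words GGGAA or TTCCC were in 53.8% of the lost and 36.4% of the gained member regions, and in 42.4% of all tested regions, beside 60.4% of the lost and 27.6% of the gained regions of the series. These shares carry no test, and neighbouring regions of a gene are not independent.

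**Figure D5:**
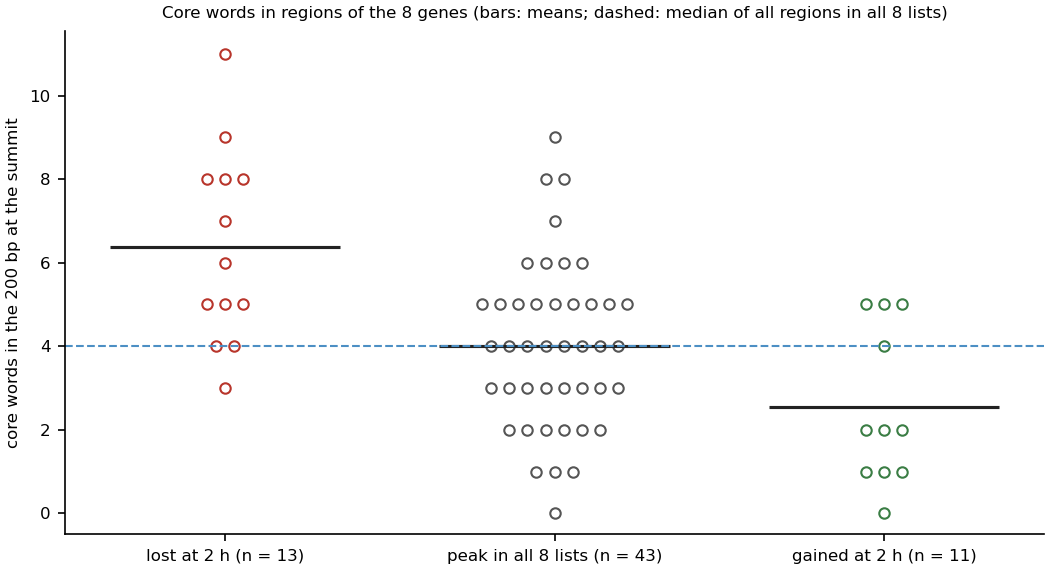
Number of core words in the 200 bp around the summit (vertical axis) of member regions lost at 2 h (13), with a peak in all 8 lists (43) and gained at 2 h (11), with bars for means and a dashed line for the median of all 47875 regions in all lists (4). The lost regions hold 3 to 11 words and the gained ones 0 to 5.

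Other words were counted in the same windows on both strands. The E-box CAGNTG was in 9 of the 11 gained member regions and 8 of the 13 lost ones, in 52.1% of the lost and 57.6% of the gained regions of the series, and in 48.9% of all tested regions. The Runt word TGTGGT was in 6 of the lost and 3 of the gained member regions, against 29.7% and 28.4% of such regions of the series and 23.4% of all tested ones. For the KLF word CCACCC the numbers were 5 and 4, against 17.6%, 19.1% and 19.9%, and for the forkhead word TGTTTAC none and 1, against 1.43%, 4.14% and 2.29%. The palindromic EBF word, which contains core words, was in 1 of the 119 member regions and 2.11% of all tested ones.

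The 57 other genes of adhesion, integrin signalling and homing that were listed beside the 8 had 999 regions, 296 of them tested. At 2 h, 11 were called lower and 6 higher, where the background was 2.73% and 2.5%. By role, 2 of 65 tested regions of integrin chains were lower and 1 higher, 3 of 58 of ligands and adhesion molecules lower, 1 of 45 of homing receptors lower and 2 higher, and 5 of 128 of integrin activation and focal adhesion lower and 3 higher. Among those lower were a coding exon of Itgal, the αL chain of LFA-1, with 84 and 67 fragments at 0 h and 22 and 21 after 2 h (adjusted p 0.00316), and an untranslated exon of Ccr2, with 94 and 64, then 14 and 13 (0.00228). Others that were lower belonged to Itga6, Icam2, Cd47, Tln2, Src, Rasgrp2 and, with 2 regions, Pxn, the gene of the focal adhesion adaptor paxillin, and those higher were of Itga2, Ccr6, S1pr1, Parvb, Rap1b and Actn1. The same test over the same libraries thus called 2 of 43 regions of the 8 genes and 17 of 296 of the others, and the difference was not tested.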

How the data were processed

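ATAC-seq libraries of B3 cells with Ikaros-ERt2 were taken as deposited, 1 peak list for each of 8 libraries. Per the submitters' processing notes the reads were aligned with BWA 0.7.17 to GRCm38 (mm10) and peaks called with MACS2 2.1.2. The methods name a human genome for the alignment, but all peaks lie inside the GRCm38 chromosomes. The study kept fragments of up to 120 bp from nucleosome-free DNA and called each library without a control. The deposited lists give, without scaling between libraries, a ratio (fold of the summit pileup over local background), a −log10 p-value, a −log10 q-value and the caller's integer score. The lowest −log10 q was 1.3. The study's count model needs counts, which were not used here.

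Peaks that overlapped in any of the lists were merged into regions. A merged region can hold several summits, so libraries may be compared at different ones. The printed 200 bp are centred on the summit with the highest percentile. The largest fall of Itga5, the largest rise of Itgb7 and the start-site region of Itgb1 had no value when summits within 100 bp were joined instead. Fold and −log10 p-value together fix whole fragments and local background. A whole number of fragments gave back the −log10 p-value within 0.001 for 100.0% of peaks in each list. The commonest background of weak peaks stood for depth. With 11 to 14 fragments at the median summit, a single value carries a large counting error. Percentiles of the fold (highest peak of a region) became normal scores, which limma 3.58.1 fitted (R 4.3.3, lmFit and eBayes, 4 groups in 1 model) over the 47875 regions in all 8 lists, with Benjamini-Hochberg adjustment and calls under 0.01. In simulated data for 2 h against 0 h on 47875 regions, 54.5% of 200 changed regions were called, 94.2% of the 86 with a shift of at least 2, with 1 unchanged region called. The simulated noise was normal, with the spread of each region pulled toward the median spread. The data themselves gave 1305 lower and 1199 higher calls at 2 h, so the simulated rates need not hold for them. Lost regions had a peak in both 0 h lists and in neither of a later time, and gained ones the opposite. Positions and annotation came from GENCODE M21 and sequences from the GRCm38 assembly. Just inside the 20 kb limit lay 2 tested Ptk2 regions, 19.3 and 19.6 kb from the gene (percentiles 63.9 and 33.1, and 86.1 and 94.4, at 0 h), and just outside it tested regions 20.1 kb from Itga5 (82.5 and 69.9) and 20.1 kb from Ccr7 (70.6 and 64.0).

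The members, lists and tests were chosen with earlier results of these data known. Named regions were those past the threshold, those at a start site, the largest fall and rise of each gene, and lost or gained ones with over 20 fragments in every library where present. The other regions of each gene that are named were chosen after their values were seen. Same-numbered replicates did not deviate together (correlations of 0.0201 to 0.0371), so they were not paired. Alternatives covered the scale, the filter, the prior, the threshold, the replicate block, each library left out, the joining of peaks and the window. Some genes counted in the marker and adhesion lists are not reported here by name.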

Additional observations from a re-analysis of the deposited data

How the results depend on the processing

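Counts of member regions moved with the scale, while most single directions did not. At 2 h, where 2 regions were higher and none lower, the higher and lower counts were 1 and 3 with ranks among tested regions, 1 and 1 ranked by −log10 p-value, 6 and 5 as fragments over background, 5 and 5 with those centred, 7 and 7 for regions in at least 2 lists, 4 and 3 with a trend and robust prior, and 12 and 4 at an adjusted p under 0.05. With 5 kb on either side 1 was higher, with the replicate block 1 was higher and none lower, and leaving out each library gave 0 to 1 higher. At 1 h, where none was called, they were 1 higher with ranks among tested regions, 2 higher by −log10 p-value, 3 and 3 as fragments, 3 and 3 centred, 5 and 6 in at least 2 lists, 3 higher with the prior and 6 and 1 under 0.05. At 30 min they were 1 lower as fragments, 1 lower centred, and 2 higher and 6 lower in at least 2 lists. Lost regions numbered 9, 10 and 13 at 30 min, 1 h and 2 h. With 5 kb on either side they were 3, 5 and 6, with over 20 fragments 3, 4 and 5, and with a library left out 11 to 15, 12 to 17 and 15 to 18. Gained regions numbered 4, 10 and 11, with 5 kb 1, 6 and 7, with over 20 fragments 0, 0 and 0, with a library left out 5 to 11, 12 to 18 and 13 to 23, and 7 at 2 h with lists of equal length. By their definition, the lost and gained counts can only stay or rise when a library is left out. They can only stay or fall with the narrower window or the fragment filter. The causes of the other changes were not tested. Among named regions without a call, the shift at 2 h changed sign when a library was left out for Itgb1 18.6 kb upstream (0.00 to 0.40), Cd44 72.0 kb downstream (-0.01 to 0.66), Cxcr4 338 bp upstream (-0.20 to 0.02, and 0.01 by −log10 p-value) and Ccr7 191 bp upstream (-0.14 to 0.62). The called Itga5 region 29.6 kb downstream also missed the threshold in at least 2 lists (0.0127). With 2 libraries a group and 11 to 14 fragments at the median summit, small changes were not detectable.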
